A study of Mus musculus with 12 samples.

Results

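Genes for 8 hydrolases of the intestinal brush border were followed in mouse ileum: the sugar-splitting enzymes Sis, Mgam, Treh and Lct, the lipid-splitting enzymes Enpp7 and Plb1, the alkaline phosphatase Alpi and the peptidase-family member Naaladl1. They were taken by gene name from a table of 44205 genes, and all 8 were present and passed the filter on low values. RNA of the ileum had been sequenced from 12 C57BL/6 mice, 3 in each of 4 diet groups, and each mouse gave 1 library. All mice were 16 weeks old, and the diets had run for 10 weeks from the age of 6 weeks. NF mice ate a normal-fat diet, and NF-Sugar mice ate the same diet with a sugar drink of 23% (w/v). HF mice ate a high-fat diet with 60% of its energy as fat, and HF-Sugar mice ate that diet with the sugar drink. The labels name no drink for NF and HF mice, and the study's methods state plain water for the normal diet. The study's text calls the tissue terminal ileum, where the labels say ileum. The groups with both fat and sugar, and with neither, are the Western diet and the normal diet of the study. The sex of the mice is not given in the labels. Expression is in RPKM, read counts divided by exon length and by the number of mapped reads, so levels can be compared between genes.

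The brush border is the carpet of microvilli on the luminal face of absorptive enterocytes. Its hydrolases are anchored in that membrane and finish digestion at the surface, so that sugars, lipid fragments and amino acids are released next to the transporters that take them up. Several of them fall from the upper to the lower small intestine. Lactase is the best known example, high in jejunum and low in ileum, and GATA4, HNF1 and CDX factors are known to act on its gene. One member goes beyond the sugar, lipid and phosphate enzymes of the group: Naaladl1 belongs to the family of glutamate carboxypeptidases and is a peptidase.

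Sequences before RefSeq starts are shown for Lct, Enpp7 and Plb1, whose RNA varied most among mice, and for Sis, which varied less than these. They are RefSeq sequences of build GRCm38.p6, read 5′ to 3′ along the gene and ending 1 base before the start, and capitals mark GATAA or its reverse complement TTATC, the core bound by GATA factors.
Lct, chr1:128328319-128328568, minus strand: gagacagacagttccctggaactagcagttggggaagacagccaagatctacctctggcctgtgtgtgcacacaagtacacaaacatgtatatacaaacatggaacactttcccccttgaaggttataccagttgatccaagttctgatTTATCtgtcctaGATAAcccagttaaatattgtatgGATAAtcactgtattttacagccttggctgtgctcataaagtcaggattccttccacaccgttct
Enpp7, chr11:118987931-118988180, plus strand: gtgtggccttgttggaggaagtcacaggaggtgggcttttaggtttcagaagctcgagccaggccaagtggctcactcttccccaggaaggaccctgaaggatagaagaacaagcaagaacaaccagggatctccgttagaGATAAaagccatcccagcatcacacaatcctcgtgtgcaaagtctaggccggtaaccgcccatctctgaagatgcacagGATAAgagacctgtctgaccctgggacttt
Plb1, chr5:32238834-32239083, plus strand: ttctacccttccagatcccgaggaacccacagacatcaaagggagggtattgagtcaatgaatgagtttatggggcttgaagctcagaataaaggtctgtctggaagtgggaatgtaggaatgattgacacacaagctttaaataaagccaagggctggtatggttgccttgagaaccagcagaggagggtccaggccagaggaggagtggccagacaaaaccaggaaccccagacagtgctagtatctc
Sis, chr3:72967864-72968113, minus strand: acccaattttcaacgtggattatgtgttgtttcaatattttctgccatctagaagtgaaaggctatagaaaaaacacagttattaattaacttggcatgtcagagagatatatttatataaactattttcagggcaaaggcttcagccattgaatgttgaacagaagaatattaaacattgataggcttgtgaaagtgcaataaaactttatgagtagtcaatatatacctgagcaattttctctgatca
Promoters of 250 bases were found for 7 of 8 members, with 2 starts for Plb1, and Naaladl1 was not among them. Both Plb1 windows lay inside the gene as GENCODE places it (chr5:32232708-32366520). The sequence before that gene start was thus not searched. The Lct window held 3 GATA cores, whose first bases lay at -101, -89 and -65 counted back from the start. The Enpp7 window held 2, at -109 and -30, and the Mgam window (chr6:40628581-40628830, plus strand) held 2, at -208 and -66. None lay in the windows of Sis, Treh, Alpi or Plb1. Over 32851 RefSeq promoters cut in the same way, 22.6% held a GATA core on either strand, against 3 of 7 members. TTTAT or ATAAA, a core bound by CDX factors, which shares its TTAT letters with TTATC, lay in 6 of 7 members and in 37.3% of all promoters. GTTAA or TTAAC, part of the site of HNF1, lay in 4 of 7 members, among them Lct and Sis, and in 21.7% of all promoters. For Plb1 a match in either of its 2 windows counted, while the shares of all promoters count single windows. Its CDX core lay only in the window shown, and its HNF1 part only in the other. All such cores are matches of letters and say nothing on whether a factor was bound.

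Depth, recovered from the spacing of low RPKM values, was 15.3 to 39.0 M reads per library. The ileal markers Fabp6, the bile acid carrier of enterocytes, and Slc51a and Slc51b, which export bile acids, were present in every library, with Fabp6 at 2415 RPKM or more. They were the most abundant of 9 genes of the distal ileum, of which 5 were lowest in NF-Sugar 2. Along the leading principal component, with 40.2% of the variance, NF 2, NF-Sugar 1, HF 2 and HF-Sugar 2 stood apart from the other 8 libraries, and of these 4 HF 2 was highest for Mgam and Naaladl1. A pair of other libraries stood out for the members. NF-Sugar 2 was lowest for 8 of 8 members, as it was for 10.8% of the 17662 genes tested, and HF 1 was highest for 6 of 8, as it was for 10.3% of the genes tested.

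**Figure D1:**
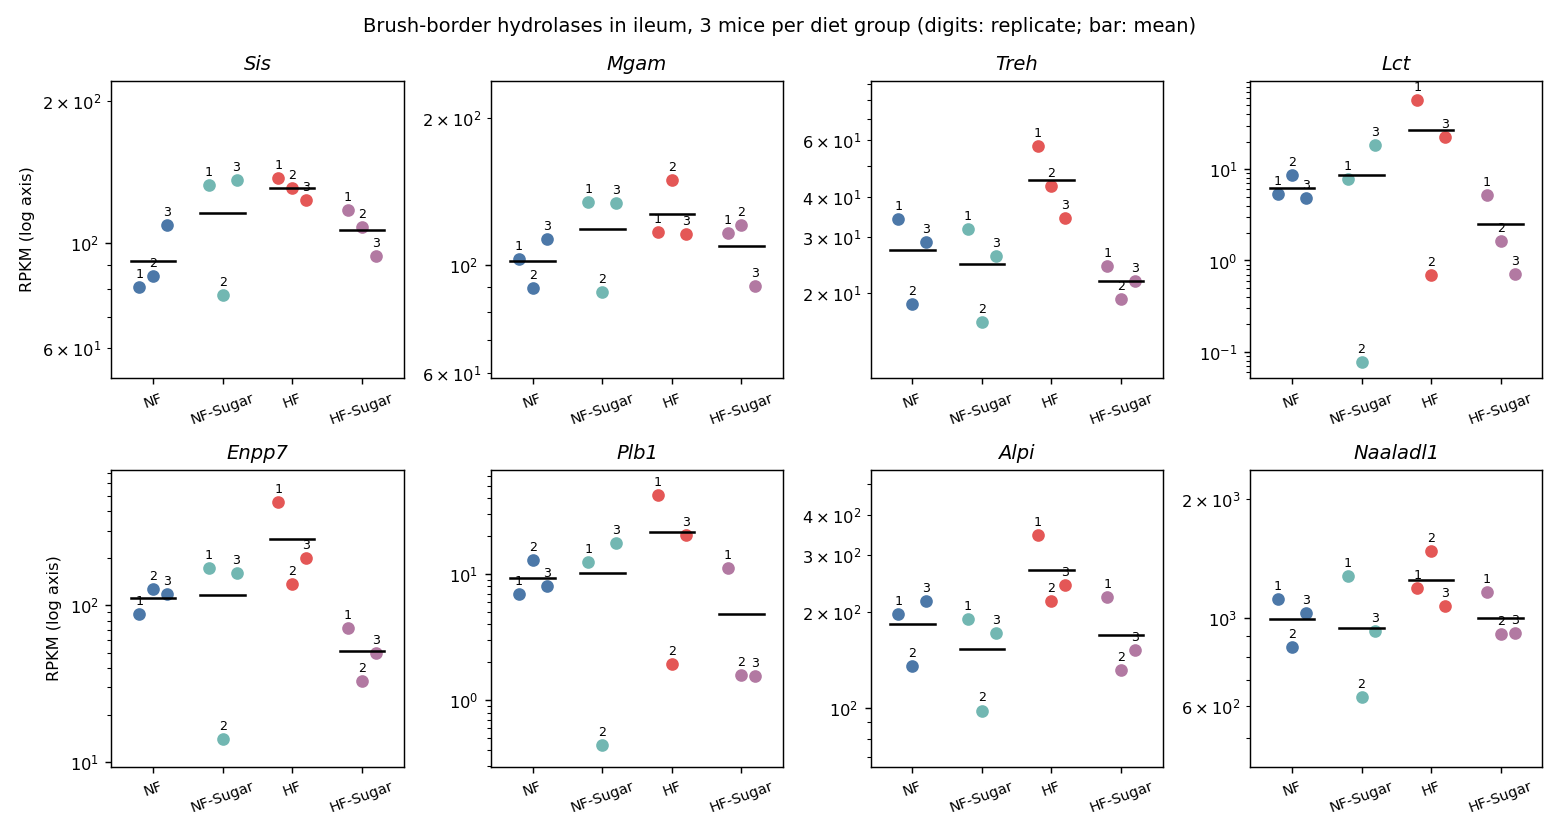
RPKM (log axis) of the 8 members in each of the 12 ileum libraries, by diet group; 1 point per mouse, digits give the replicate and bars the group mean of 3 mice. NF-Sugar 2 is the lowest point in every panel, and Lct, Enpp7 and Plb1 span the widest range.

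Sis (chr3:72888557-72967863, minus strand, gene positions in GRCm38) encodes sucrase-isomaltase, which splits table sugar and the branch points of starch. Its level was 81.0, 85.3 and 109 RPKM in the 3 NF mice, 133, 77.9 and 136 in NF-Sugar, 138, 131 and 123 in HF, and 118, 108 and 94.2 in HF-Sugar. The NF-Sugar mice split into a pair near the HF values and 1 below all NF mice, and every HF mouse was above every NF and every HF-Sugar mouse. Group means were 91.9 ± 15.4 in NF, 116 ± 32.8 in NF-Sugar, 131 ± 7.13 in HF and 107 ± 11.9 in HF-Sugar (SD, n = 3 mice each, as for all means given here).

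Mgam (chr6:40628831-40769123, plus strand), maltase-glucoamylase, releases glucose from the ends of starch fragments. It stood at 103, 89.6 and 113 RPKM in NF, 134, 87.8 and 134 in NF-Sugar, 117, 149 and 116 in HF, and 116, 121 and 90.3 in HF-Sugar. This was the flattest of the 8 members, with its highest library 1.70 times its lowest, against 1.77 for Sis. HF mice lay above NF mice without overlap, by 1.25-fold in the means.

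Treh (chr9:44673233-44686305, plus strand) encodes trehalase, which splits trehalose, the sugar of mushrooms and insects, into glucose. Treh was at 34.1, 18.5 and 28.9 RPKM in NF, 31.7, 16.2 and 26.2 in NF-Sugar, 57.5, 43.2 and 34.2 in HF, and 24.3, 19.1 and 21.8 in HF-Sugar. The 3 HF mice were the 3 highest of all 12, although the lowest of them exceeded the highest NF mouse by less than 1 RPKM. The mean was 45.0 ± 11.7 in HF and 21.7 ± 2.59 in HF-Sugar, 2.07-fold lower.

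Lct (chr1:128284756-128328318, minus strand) encodes lactase, the enzyme for milk sugar. It was at 5.30, 8.56 and 4.87 RPKM in NF, 7.74, 0.0773 and 18.3 in NF-Sugar, 57.8, 0.700 and 22.8 in HF, and 5.27, 1.63 and 0.719 in HF-Sugar. Mice of the same diet thus differed more than the diets did: within HF the highest mouse was above and the lowest below every NF mouse. The lowest value, in NF-Sugar 2, rested on about 10 reads and the highest, in HF 1, on about 8848, and the highest RPKM was 748 times the lowest.

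Enpp7 (chr11:118988188-118993221, plus strand), alkaline sphingomyelinase, breaks down sphingomyelin of food and shed cells in the gut lumen. Its values were 88.4, 128 and 118 RPKM in NF, 173, 14.0 and 161 in NF-Sugar, 458, 136 and 200 in HF, and 71.4, 32.9 and 49.9 in HF-Sugar. Every HF-Sugar mouse was below every NF mouse and every HF mouse, and only NF-Sugar 2 was lower still. The mean was 51.4 ± 19.3 in HF-Sugar, 111 ± 20.5 in NF and 265 ± 171 in HF.

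Plb1 (chr5:32232708-32366520, plus strand) encodes phospholipase B, which removes both fatty acids from phospholipids. It was at 6.91, 13.0 and 8.03 RPKM in NF, 12.6, 0.446 and 17.6 in NF-Sugar, 42.0, 1.95 and 20.4 in HF, and 11.2, 1.59 and 1.57 in HF-Sugar. As for Lct, HF 2 lay with the low HF-Sugar mice rather than with the other HF mice, and the 4 groups overlapped.

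Alpi (chr1:87098002-87101606, minus strand), intestinal alkaline phosphatase, removes phosphate groups, among others from bacterial lipopolysaccharide. The levels were 197, 135 and 216 RPKM in NF, 189, 98.0 and 172 in NF-Sugar, 347, 217 and 243 in HF, and 223, 132 and 152 in HF-Sugar. HF mice were the highest of the groups except that HF-Sugar 1 lay between the lower HF mice, and the lowest HF mouse exceeded the highest NF mouse by about 1 RPKM. Akp3, the duodenal form of the mouse, and Alppl2 are close copies on the same chromosome, and how reads shared among them were assigned is not given in the sources used here. Both were low, at 0.401 to 2.61 RPKM for Akp3 and 0.319 to 2.15 for Alppl2.

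Naaladl1 (chr19:6105782-6115792, plus strand) was the most abundant member. It stood at 1115, 844 and 1033 RPKM in NF, 1277, 633 and 930 in NF-Sugar, 1193, 1481 and 1073 in HF, and 1165, 913 and 919 in HF-Sugar. All groups overlapped in this gene. Its mean over the 12 libraries was 1048 RPKM, while the next member, Alpi, had 193, and the least abundant, Lct, had 11.1.

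By group mean, all 8 members were highest in HF, and 4 of 8 (Lct, Treh, Enpp7 and Plb1) were lowest in HF-Sugar. The steps between neighbouring groups in these orders were mostly within the spread: the ranges of the mice overlapped in 21 of 24 neighbouring pairs. The 3 without overlap were HF above NF for Treh and for Alpi, and NF above HF-Sugar for Enpp7. Of all genes tested, 5.37% had HF above NF and 2.97% had NF above HF-Sugar without overlap. After scaling of the libraries, HF and NF overlapped for Treh.

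The spread among mice of the same group separated the members more clearly than diet did. On the log2 scale, after scaling of the libraries and addition of 1 RPKM, the within-group SD was 1.79 for Lct, 1.58 for Plb1 and 1.15 for Enpp7, against a median of 0.22 over all genes tested. These values exceeded those of 99.9%, 99.8% and 98.7% of the genes tested. The other 5 were nearer to the bulk of genes, from 0.26 for Mgam to 0.40 for Alpi.

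**Figure D2:**
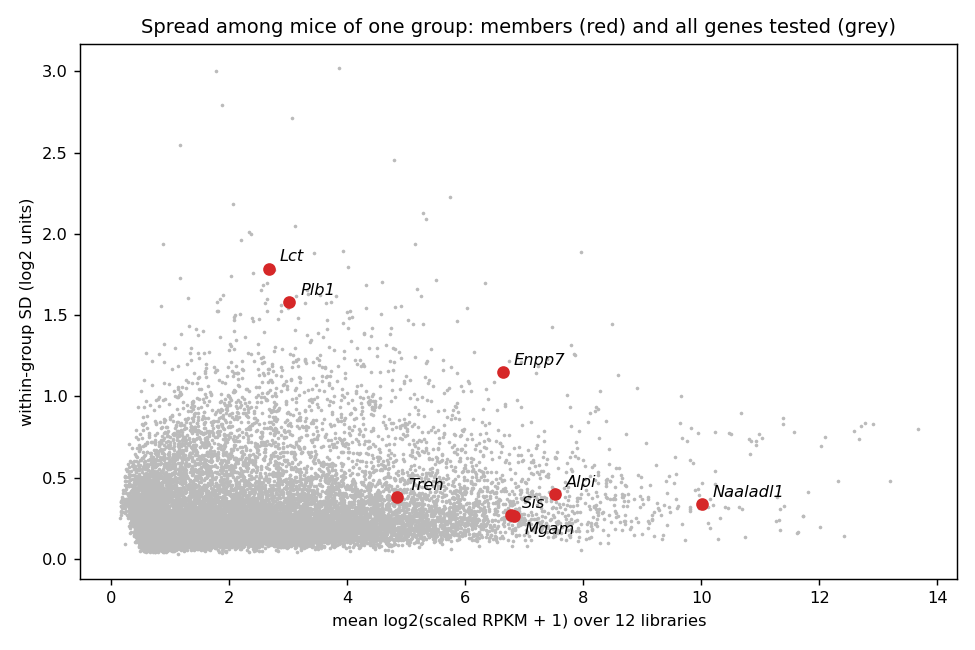
Within-group SD (vertical axis, log2 units) against mean log2(scaled RPKM + 1) over 12 libraries (horizontal axis) for the 17662 genes tested (grey) and the 8 members (red). Lct, Plb1 and Enpp7 lie at 1.79, 1.58 and 1.15, far above the other 5 members.

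The effect of dietary fat without the sugar drink was read from HF against NF. All 8 members had a higher mean in HF, where 47.3% of all genes were higher by log2 estimate. In 5 of 8 (Sis, Treh, Mgam, Enpp7 and Alpi) every HF mouse was above every NF mouse, where 5.37% of all genes tested had HF above NF without overlap. After scaling of the libraries, 3 of 8 (Sis, Mgam and Alpi) remained without overlap, against 4.48% of genes in that direction. The log2 difference was 1.01 ± 0.83 (SE) for Enpp7, 0.86 ± 1.28 for Lct, 0.66 ± 0.29 for Treh, 0.50 ± 0.31 for Alpi, 0.46 ± 0.22 for Sis, 0.43 ± 1.14 for Plb1, and 0.26 for both Mgam and Naaladl1 (SE 0.22 and 0.27). The median of the members was 0.48 and that of all genes -0.01. None of the 8 passed the test across all genes (limma, adjusted p = 1 for each after rounding), as none of the 17662 genes did, or 0%. At an unadjusted p under 0.05, limma gave 1 member, Treh, and limma-voom on recovered reads also gave 1, where 3.78% of genes reached that level in limma. Without HF 1, 6 of 8 were higher with a median of 0.31, and Lct and Plb1 turned to -0.20 and -0.38.

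Adding sugar to the high-fat diet was read from HF-Sugar against HF. All 8 members had a lower mean in HF-Sugar, where 51.1% of all genes were higher by log2 estimate. For Sis, Treh and Enpp7 every HF-Sugar mouse was below every HF mouse, a pattern held in that direction by 5.15% of the genes tested, and it held for the same 3 after scaling (4.73% of genes). Enpp7 differed by -2.22 ± 0.83 on the log2 scale (5.15-fold in the mean RPKM), Lct by -2.11 ± 1.28, Plb1 by -1.68 ± 1.14, Treh by -0.99 ± 0.29 and Alpi by -0.67 ± 0.31. The differences of Naaladl1, Sis and Mgam were smaller, at -0.32 ± 0.27, -0.29 ± 0.22 and -0.22 ± 0.22. The median was -0.83 against 0.00 over all genes. Again 0 of 8 passed in limma (adjusted p = 1 for each), where 1 gene of the whole table did (0.00566%). Unadjusted p-values under 0.05 were given by limma for 2 members, Treh (0.00641) and Enpp7 (0.0230), and by limma-voom for 3, beside 4.46% of genes in limma. In 2-sided exact permutation tests both had p = 0.1, the smallest that 3 against 3 mice allow. Without HF 1, limma gave 1 member under that unadjusted level, beside 390 of 17662 genes, and a median of -0.64 for the members.

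The Western diet as a whole was compared with the normal diet in HF-Sugar against NF. Here 2 of 8 members (Sis at 0.17 ± 0.22 and Mgam at 0.04 ± 0.22) were higher and 6 lower, with a median of -0.25. Enpp7 was the member whose groups did not overlap, at -1.21 ± 0.83 and 2.17-fold lower in the mean; 2.97% of genes tested were lower in HF-Sugar without overlap. Lct differed by -1.25 ± 1.28, Plb1 by -1.25 ± 1.14, Treh by -0.33 ± 0.29, Alpi by -0.17 ± 0.31 and Naaladl1 by -0.05 ± 0.27. No member passed in limma, where the smallest adjusted p was 0.957 (0% of genes called), and 0 of 8 had an unadjusted p under 0.05, in limma-voom as well. In that comparison 4.42% of genes reached this unadjusted level.

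**Figure D3:**
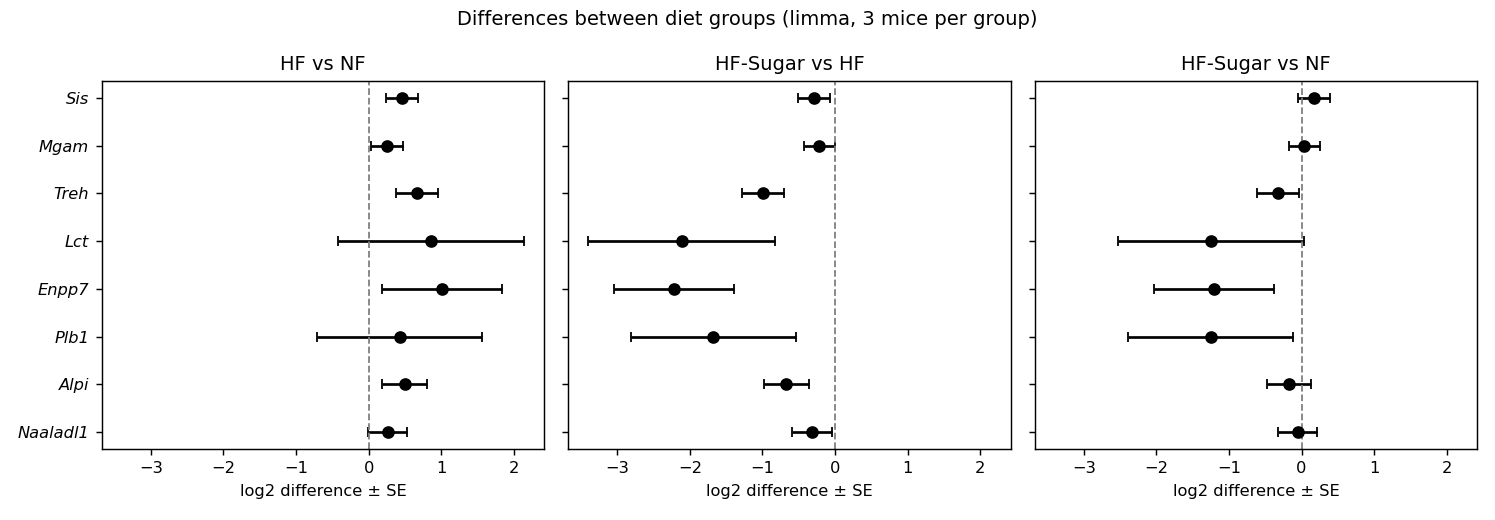
Log2 differences (horizontal axis, points) with their SE (bars) for the 8 members in HF against NF, HF-Sugar against HF and HF-Sugar against NF, 3 mice per group. All 8 points lie right of 0 in the first panel and left of 0 in the second, and the SE of Lct, Plb1 and Enpp7 is 0.83 to 1.28.

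The sugar drink on the normal-fat diet gave a comparison that rested on 1 library. With all mice, 2 of 8 members were higher in NF-Sugar than in NF and the median log2 difference was -0.22. Without NF-Sugar 2, 8 of 8 were higher with a median of 0.48. No member was called either way (limma, 0% of genes called with all mice). At an unadjusted p under 0.05 limma gave 0 of 8 with all mice (1.91% of genes) and 1 without that library (345 of 17662 genes). HF-Sugar against NF-Sugar likewise gave 0 called members and 0 under the unadjusted level (1.72% of genes). In neither NF-Sugar against NF nor HF-Sugar against NF-Sugar did any member have groups that did not overlap, where 5.86% and 5.93% of genes had none in either direction. For sugar averaged over both diets, all 8 were lower by estimate, with a median of -0.53, Treh at -0.57 ± 0.21, Enpp7 at -1.40 ± 0.59 and Alpi at -0.48 ± 0.22. Without NF-Sugar 2, 6 of 8 were lower with a median of -0.38 and Enpp7 was at -0.81, and without both NF-Sugar 2 and HF 1 the median was -0.10. Treh and Enpp7 had unadjusted limma p-values of 0.0191 and 0.0382 (3.70% of genes were under 0.05) and exact permutation p-values of 0.05 and 0.075, 2-sided and with diets kept apart. In all, 56 such permutation tests of single members were run, and neither gene was called after adjustment in limma (adjusted p = 0.998 for both). For fat averaged over both drinks, 6 of 8 were higher with a median of 0.17, and 0 of 8 were called or under an unadjusted p of 0.05 (2.66% of genes). Without NF-Sugar 2 that average was higher for 4 of 8, with a median of -0.01. The interaction of fat and sugar was negative for 8 of 8, with a median of -0.71, and also gave 0 members at either level (2.60% of genes at the unadjusted level). Without NF-Sugar 2, the library lowest for 8 of 8 members, the median of the interaction was -0.98. In that fit 4 members were under the unadjusted level, beside 555 of 17662 genes. Without NF-Sugar 1 the interaction was negative for 7 of 8, and 0 were called in limma either way.

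Lct and Plb1 ranked the libraries alike, and Enpp7 followed them less closely. Across the 12 libraries the log2 values of Lct and Plb1 had a Pearson r of 0.974 (Spearman rho 0.972), and r was 0.959 without the 2 libraries farthest from the Lct median. Lct with Enpp7 gave 0.845 and Plb1 with Enpp7 0.872, both below Treh with Alpi at 0.905. Enpp7 with Alpi (0.855) and Sis with Mgam (0.849) were also above Lct with Enpp7. The 28 pairs of members had a median of 0.669 and a lowest value of 0.275, for Lct with Mgam. The last pair stood at 0.805 over the 8 libraries that did not stand apart. HF 2 parted Enpp7 from the other 2, being 8th of 12 in rising order for Enpp7 but 2nd for Lct and 4th for Plb1. These correlations are descriptions over 12 libraries that share 4 diets and differ in depth.

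The 3 genes most like each member, among 7098 tested genes with a mean of at least 5 RPKM, were ranked by Pearson r over the 12 libraries. For Lct they were Plb1, 1810055G02Rik (0.952) and Mttp (0.934), which loads lipid onto apolipoprotein B. For Plb1 they were Lct, Fam151a (0.970) and Mttp (0.942). For Enpp7 they were Cyp4v3 (0.971), Gm11127 (0.932) and Mogat2 (0.929), an enzyme that rebuilds triglyceride from absorbed monoglyceride. Treh was closest to Pdzk1 (0.944), a scaffold of apical transporters, Cyp2d26 (0.943) and Slc5a11 (0.929), and Alpi to Gm8909 (0.957), Tmem86b (0.935) and Slc5a11 (0.922). Mgam was closest to Npc1l1 (0.944), the transporter that takes up cholesterol, then to Synpo (0.935) and Gatsl2 (0.925), and Sis to Synpo (0.917), Abr (0.895) and Cfb (0.893). Naaladl1 was closest to Arhgef16 (0.920), Mep1a (0.914), a subunit of the peptidase meprin, and Naip5 (0.913). Over the 8 libraries that did not stand apart these 24 values lay between 0.861 and 0.983.

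Gata4, a factor that marks and maintains the upper small intestine, was looked at after its values had been seen. It was at 2.08, 3.01 and 2.30 RPKM in NF, 2.54, 0.355 and 3.41 in NF-Sugar, 5.02, 0.640 and 4.50 in HF, and 2.37, 0.776 and 0.456 in HF-Sugar. The 4 libraries with the lowest Gata4 were also the 4 with the lowest Lct. Its r over the 12 libraries was 0.985 with Plb1, 0.969 with Lct and 0.823 with Enpp7, and without the 2 libraries farthest from the Gata4 median it was 0.981, 0.956 and 0.713. With the other 5 members r was lower, from 0.270 for Mgam to 0.688 for Alpi over the 12 libraries, and for Mgam and Naaladl1 it was -0.425 and -0.245 without those 2 libraries. Over the 8 libraries that did not stand apart, however, r was 0.745 (Naaladl1) to 0.872 (Alpi) for these 5, against 0.925 to 0.984 for Enpp7, Lct and Plb1. Gata4 itself did not pass in limma in any comparison (adjusted p of at least 0.957), with a log2 difference of -0.86 ± 0.56 in HF-Sugar against HF and 0.09 ± 0.56 in HF against NF.

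**Figure D4:**
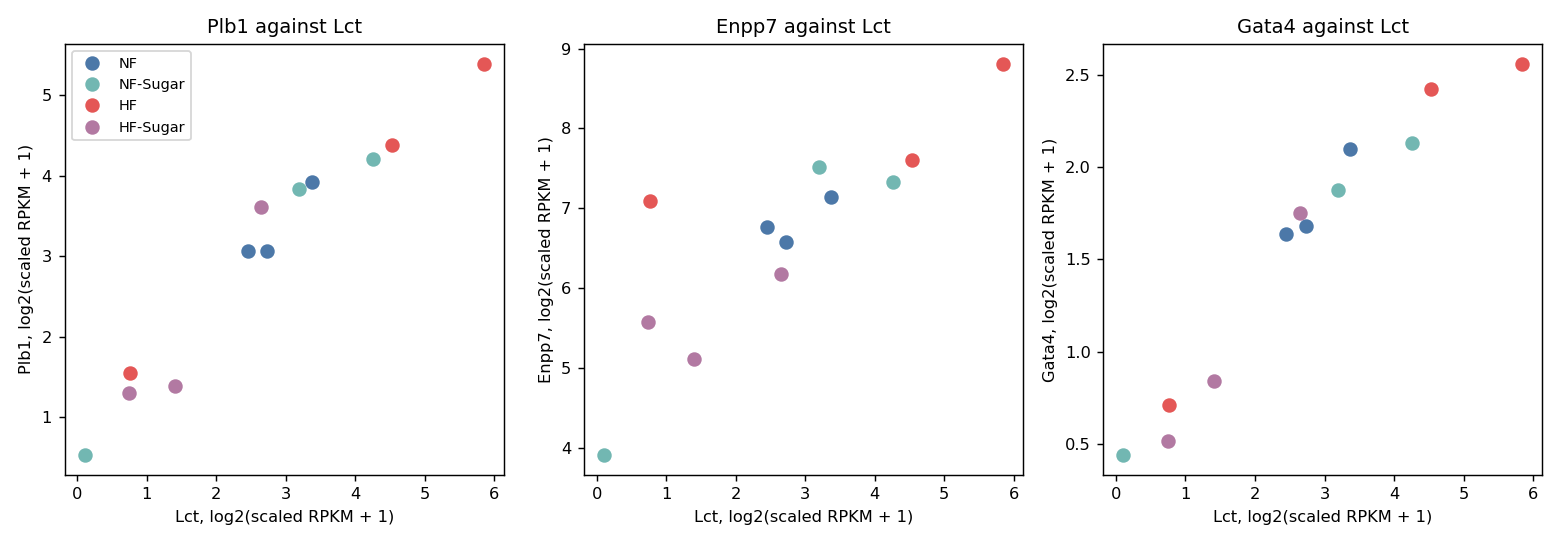
Plb1, Enpp7 and Gata4 (vertical axes) against Lct (horizontal axis), all as log2(scaled RPKM + 1), each point being a library and each color a diet group. Plb1 and Gata4 rise with Lct over all 12 libraries (r = 0.974 and 0.969), and HF 2 lies off the line for Enpp7.

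Other genes of the upper small intestine varied in the same libraries. Of 13 such genes tested, 9 were highest in HF 1 and 5 lowest in NF-Sugar 2, among them Apoa4, a lipid-binding apolipoprotein, with 1793 RPKM in HF 1 and 139 in NF-Sugar 2. Apoa1, the apolipoprotein of HDL, reached 10097 RPKM in HF 1 against 2678 in NF-Sugar 2, and Rbp2, which carries retinol in enterocytes, ranged from 114 to 724. In HF-Sugar against HF, 10 of the 13 were lower, with a median of -0.72, and in HF against NF 9 of 13 were higher, with a median of 0.04. None of the 13 passed in limma in either. Genes of the distal ileum were lowest in NF-Sugar 2 in 5 of 9 cases and highest in HF 1 in 1. How far each piece lay from the end of the ileum is not given in the sources used here, and its part in these values was not tested. At an unadjusted p under 0.05, limma gave 1 of the 13 proximal genes in HF-Sugar against HF and in HF against NF, Slc40a1. It went opposite to most of the 13, with a mean of 2.10 RPKM in HF, 3.28 in NF and 4.10 in HF-Sugar.

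Brush-border peptidases, the most similar enzyme class, were read in the same way. Of 11 tested, 8 were lowest in NF-Sugar 2 and 7 highest in HF 1. The most abundant were Anpep (1324 to 2431 RPKM), Mep1b (299.6 to 377) and Enpep (274 to 366). All 11 were lower in HF-Sugar than in HF, with a median of -0.33, and 7 were higher in HF than in NF, with a median of 0.04. Of 14 structural genes of microvilli, 12 were lower in HF-Sugar than in HF (median -0.31) and 8 higher in HF than in NF (median 0.02). Villin, encoded by Vil1, was at 328 RPKM in NF-Sugar 2 and at 453 to 552 in the other 11 libraries, and Cdhr5 and Tmigd1, both of the microvillus membrane, ranged from 257 to 509 and from 286 to 527. In both lists 0 genes were called by limma in these comparisons, and in HF against NF 0 had an unadjusted p under 0.05. In HF-Sugar against HF that level was reached by 3 peptidases (Ace, Mme and Dpep1) and by 4 structural genes (Myo1a, Espn, Ush1c and Pdzk1).

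**Figure D5:**
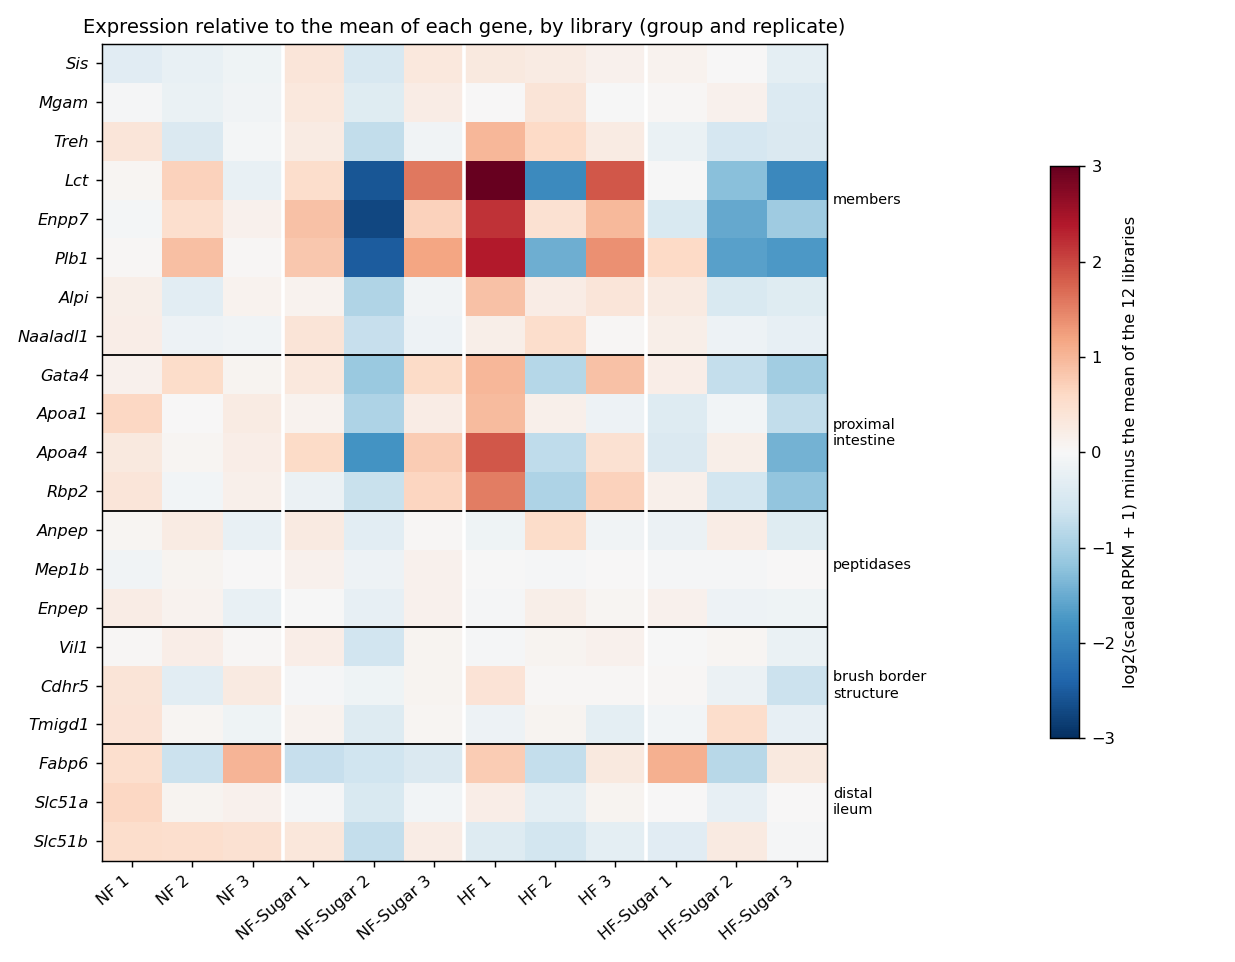
Log2(scaled RPKM + 1) minus the mean of the 12 libraries for each gene (color), for the 8 members, genes of the proximal intestine, peptidases, microvillus structure and distal ileum (rows) in 12 libraries (columns, group and replicate). Lct, Enpp7, Plb1, Gata4 and Apoa4 are lowest (blue) in NF-Sugar 2 and highest (red) in HF 1, while the rows of Anpep, Mep1b, Enpep and Vil1 stay pale.

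Sugar uptake and fructose breakdown take over the products of the disaccharidases. Of 8 genes tested, 6 were higher in HF than in NF (median 0.43) and 7 lower in HF-Sugar than in HF (median -0.52), with 0 called by limma and 4 and 2 under an unadjusted p of 0.05. Slc5a1, the sodium-coupled glucose transporter, was at 165 to 286 RPKM, and Tkfc, a kinase of fructose breakdown, at 68.0 to 156. Of 15 relatives and other digestive hydrolases tested, 7 were higher in HF than in NF and 7 higher in HF-Sugar than in HF, with medians of -0.02 in both, 0 called by limma and 0 and 2 under that unadjusted level. The most abundant of them, Clps, Pla2g12b and Pla2g2a, ranged from 52.6 to 366, from 41.5 to 65.6 and from 17.3 to 68.5 RPKM. Of 13 regulators of enterocyte genes, 11 were higher in HF than in NF (median 0.08) and 11 lower in HF-Sugar than in HF (median -0.12), again with 0 called, and 3 and 0 under the unadjusted level. Hnf4a, Cdx1 and Klf4, the most abundant, stayed within 143 to 207, 100.4 to 129 and 58.1 to 104 RPKM.

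Markers of cell types differed among single libraries and, by estimate only, between diet groups. In NF-Sugar 2 the summed RPKM of 6 smooth muscle genes was 1127, the highest of all libraries, against 404 to 786 in the other groups. By mean log2 value of these genes NF-Sugar 3 came next, at 6.91 against 7.21 in NF-Sugar 2. The mean log2 value of the members was 6.50 in NF-Sugar 3 and 4.67 in NF-Sugar 2. The sum of 12 enterocyte genes in NF-Sugar 2 was 6025, the lowest, against 6726 to 12669 in the other groups. The highest, 12669, was HF 1. In HF-Sugar all 12 enterocyte genes were lower than in HF (median -0.19) and than in NF (median -0.25), and 7 of 8 immune genes were higher in both (medians 0.17 and 0.33), with 0 called by limma. At an unadjusted p under 0.05 limma gave 1 and 2 of the enterocyte genes and 3 immune genes in each. HF 2 held pancreatic transcripts, with 8 markers summing to 31.3 RPKM against at most 5.95 in the other groups, and Ctrb1 at 8.48 where 7 libraries were at 0. Their part in the members' values was not tested. In whole ileum, fewer enterocytes and less RNA per enterocyte cannot be told apart. Set against the mean of the enterocyte list, 8 of 8 members were higher in HF than in NF (median 0.54) and 7 of 8 lower in HF-Sugar than in HF (median -0.54), with 0 called by limma in each. In HF against NF 8 of the 12 listed genes were themselves lower (median -0.04), and taking out their mean raised every gene there. The list also holds Mttp, among the genes closest to Lct and Plb1. The same step gave all genes tested medians of 0.05 and 0.29 in these comparisons. In HF-Sugar against NF it turned the members from 2 of 8 higher (median -0.25) to 5 of 8 higher (median 0.10). The median of all genes rose there from -0.01 to 0.34, so that of the members stayed below it.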

How the data were processed

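Ileal RNA of 12 mice had been sequenced on the Ion Proton by the study's methods, which isolate mRNA from total RNA and deplete ribosomal RNA. Samples had been selected on an RNA integrity number above 8. The labels give 5 µg of input, and the study's methods state a different amount. The authors mapped reads to mm10 in Partek and deposited RPKM values, which 12 of 12 per-sample files repeated exactly. Rows named by bare numbers (26) were left out. RPKM was scaled by trimmed mean of M values, and log2(RPKM + 1) was fitted over all 12 libraries for the 17662 genes that reached 0.5 RPKM in 3 or more of them, in limma 3.58.1 (R 4.3.3, trend), with Benjamini-Hochberg adjustment over all of them and a threshold of 0.05, so p-values rest on 3 mice per group. The fit was tested on simulated data. Levels in the text are deposited RPKM. Gene positions came from GENCODE for GRCm38, and promoters from RefSeq. Depth was recovered from genes with 1 transcript, with 84.5% to 86.8% of the low values falling within 0.03 of a whole read. Because the values are RPKM, count models were not run, and limma-voom on recovered reads was an alternative. The named genes were the 8 members, the 3 most abundant genes of each list and the 3 genes most like each member, of which 1 list gene is not reported here, and Gata4, Akp3, Alppl2 and Ctrb1 were added after their values were seen; members, lists and contrasts were chosen with earlier results of these data known. Pairing by replicate number was checked by correlating, between groups, each library's deviations from its group mean: each of 3 pairs exceeded 0.1 for HF-Sugar with HF (0.131 to 0.557) and with NF (0.186 to 0.512) and not for other pairs of groups, so the replicate block was an alternative only. Figures used Python 3.11.15 with matplotlib 3.10.9.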

Additional observations from a re-analysis of the deposited data

How the results depend on the processing

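No member was called in any of 8 contrasts under any alternative: other scalings (none, median of ratios), no filter or a mean of at least 5 RPKM, pseudocounts of 0.1 and 5, the library cluster as covariate, the 4 libraries that stand apart left out, limma-voom on recovered reads, values relative to the enterocyte list, each library left out in turn, and NF-Sugar 2 and HF 1 left out together, the last chosen after seeing the data. Fitting only the groups compared, run for the 5 pairs of groups, also called 0. With the replicate block 0 members were called in each contrast and no call changed. Of 672 recomputed log2 differences, 658 kept their direction and 14 did not. Many could not turn, because either filter, the replicate block, the cluster covariate and fitting only the groups compared leave the estimate unchanged. Leaving out a library of a group not compared also leaves it unchanged. The 672 values cover 27 results, the 8 members in HF against NF, HF-Sugar against HF and HF-Sugar against NF, and Treh, Enpp7 and Alpi for sugar averaged. Outside them, NF-Sugar against NF went from 2 to 8 of 8 members higher without NF-Sugar 2. In HF against NF, leaving out each library gave -0.20 to 2.34 for Lct and -0.38 to 1.54 for Plb1, and without NF-Sugar 2 and HF 1 they were -0.20 and -0.38. In HF-Sugar against NF, leaving out each library gave -0.0613 to 0.20 for Mgam and -0.18 to 0.0607 for Naaladl1; Mgam was -0.10 without the libraries that stand apart, and Naaladl1 was 0.0022 with no scaling. Relative to the enterocyte list, Mgam was 0.0721 in HF-Sugar against HF, and in HF-Sugar against NF Treh was 0.025, Alpi 0.18 and Naaladl1 0.30. The medians of all genes in that setting were 0.29 and 0.34 in these comparisons. The cause of these turns was not tested. Scaled means of RPKM lay within 1 SD of the deposited ones for all 8 members in all 4 groups. The lowest Lct value rests on about 10 reads.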
